A study of Mus musculus with 15 samples.

Results

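The step from day 2 to day 3 in cultures that received no RANKL was described from 4 arrays, 2 of day 2 and 2 of day 3, out of 15 arrays in the series. The cells were RAW 264.7, a mouse macrophage-like line, called mononuclear in the labels. RANKL is a cytokine under which cells of the macrophage lineage fuse into bone-resorbing osteoclasts. Control cells grew in alpha-MEM with 10% FBS (fetal bovine serum) and antibiotics, and additions without RANKL were made on days 0 and 3. In RANKL cultures the cytokine, prepared in alpha-MEM without serum, was added on the same days. The labels do not say whether the RNA of day 3 was taken before or after the addition of that day, so a further day of culture and the addition cannot be told apart. The 2 control arrays of day 4 were used to ask whether genes stayed at the level of day 3. The control arrays of days 1 and 5, 1 each, are given as single values. In addition, 4 RANKL arrays, 2 of day 2 and 2 of day 4, show the span from day 2 to day 4 with RANKL. RANKL at day 3 was not analysed here.

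RAW 264.7 cells come from a tumour induced by Abelson leukaemia virus and divide without added growth factor. Macrophages that slow their division usually lower the genes of DNA replication and mitosis, which are transcribed in waves tied to the cell cycle, and raise receptors, adhesion molecules and lysosomal enzymes. Fresh or spent medium can also act on sterol synthesis, amino acid sensing and inflammatory genes, so all of these groups were examined. The gene lists were chosen with earlier results of these data known, so their counts are descriptions.

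Each array gave 1 hybridisation signal, in linear intensity units, for every probe set, a group of probes for 1 transcript. Differences are log2 changes of the signal plus 32, with their standard errors (SE) from limma, a linear model fitted to all 15 arrays, and a probe set was called changed at a Benjamini-Hochberg adjusted p below 0.05. On the 4 compared arrays the median signal ran from 121 to 138, and signals over 100 made up 53.0% to 55.0% of them. Across probe sets, as a description, r was 0.981 between the day 2 arrays and 0.978 between those of day 3. The ratio of 3′ to 5′ signal for beta-actin, which reflects RNA integrity, was 1.17 to 1.245 on day 2 and 1.04 to 1.13 on day 3, so it moved with the comparison, and its part in the results below is given only through the fit with it as a covariate. The labels do not say that replicates are separate cultures, and the p-values then cover only the spread between these arrays, which may be technical. Among markers of the line, Cd68 was strong on both days, whereas Itgam and Adgre1, given below, were weaker on day 2. Cd68, a lysosomal membrane protein of macrophages, had signals of 8788 and 8787 on the day 2 arrays and 9585 and 9838 on the day 3 arrays.

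The step was broad. Of 12422 probe sets, 880 (7.08%) were called changed, 508 higher (4.09%) and 372 lower (2.99%) on day 3. Counted by genes, each through its brightest probe set, 354 of 8251 genes were higher (4.29%) and 285 were lower (3.45%). These shares over genes stand as the background for the list counts below. The median change over all probe sets was 0.01. Both day 3 arrays lay above both day 2 arrays for 27.2% of all probe sets and below them for 24.9%. Such a separation held for all 508 and all 372 called probe sets, so for a called gene it is not further support. The count depended on every one of the 4 arrays. It fell to 49 without day 2 replicate 1, 317 without day 2 replicate 2, 364 without day 3 replicate 1 and 82 without day 3 replicate 2, and it was 203 with the beta-actin ratio as a covariate.

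Calls of single genes were followed over 14 alternative settings, which changed the pseudocount, the normalization, the probe sets tested, the model terms or the arrays. Of 101 named genes past the threshold, 15 stayed past it in every setting that tested them: Id2, Id3, Gclm and Aurka among the falls, and Hebp1, Itgam, Pltp, Ltc4s, Itgb7, Fcgr2b, Pirb, Cd47, Mcl1, Hexa and Slc11a2 among the rises. No named gene past the threshold changed direction in any of them. For other genes the text gives, after the call, the highest adjusted p over the settings.

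The steepest falls were in the Id family. Id proteins dimerise with basic helix-loop-helix transcription factors and keep them off DNA, and their genes are classical targets of bone morphogenetic protein signalling. Id2 had signals of 1947 and 1655 on the day 2 arrays and 117 and 80.8 on the day 3 arrays. Its change was −3.82 (SE 0.47, adjusted p = 0.00266, n = 2 and 2). Id3 gave 1697 and 1677 on day 2 against 132 and 167 on day 3, a change of −3.25 (SE 0.27, adjusted p = 0.000346). The groups of both genes were far apart, and the single day 1 array lay lower than day 2, at 537 for Id2 and 922 for Id3. Id1 fell from 734 and 892 to 104 and 158, a change of −2.39 (SE 0.43, adjusted p = 0.00961). Its call was lost without any single one of the 4 arrays, with a highest adjusted p of 0.0791 without day 2 replicate 1. On the day 4 arrays the signals were 148 and 156 for Id2, 249 and 175 for Id3, and 128 and 74.2 for Id1, so all remained below both day 2 arrays. In bulk RNA, fewer cells that express a gene and less RNA per cell cannot be told apart, here and in all that follows.

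**Figure D1:**
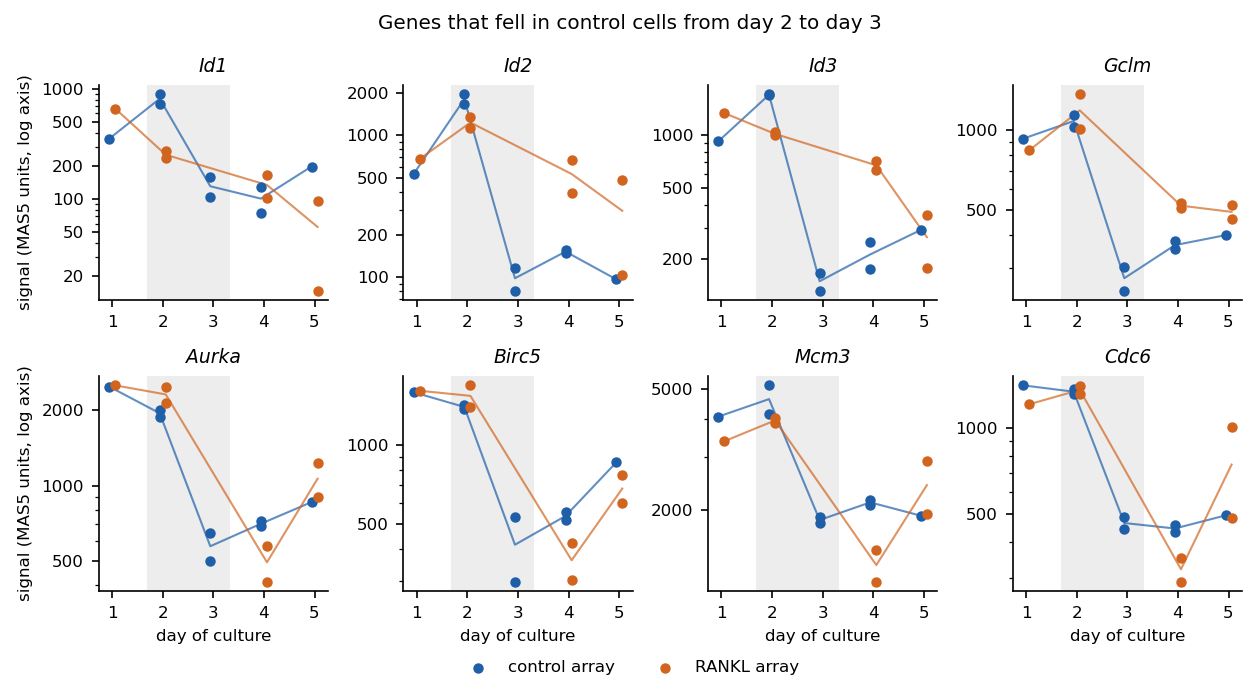
Signals (log axis, MAS5 intensity units) of 8 genes that fell in control cells, by day of culture; points are arrays, lines join group means, the shaded span is day 2 to day 3, and no RANKL array of day 3 is shown. Id2 goes from 1655 or more on the day 2 control arrays to 117 or less on day 3, and the mitosis and replication genes stay below their day 2 control arrays on days 4 and 5.

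Genes of mitosis and cytokinesis fell together. Of 44 represented, 22 were called lower and 0 higher, and all 44 had a negative change, with a median of −0.89. Over all genes 3.45% were called lower. Both day 3 arrays lay below both day 2 arrays for 39 of the 44, against 24.9% of all probe sets. Aurka, the spindle kinase aurora A, had signals of 2005 and 1885 on day 2 and 647 and 498 on day 3, a change of −1.72 (SE 0.21, adjusted p = 0.00259). Birc5, the survivin subunit of the chromosomal passenger complex, went from 1424 and 1378 to 299 and 530 (change −1.73, SE 0.25, adjusted p = 0.0043, highest 0.058 without day 2 replicate 1). Kif2c, a microtubule-depolymerising kinesin, went from 1209 and 1206 to 376 and 312 (change −1.73, SE 0.26, adjusted p = 0.00544, highest 0.0592 without day 3 replicate 2). Tacc3, a spindle microtubule protein, was at 450 and 442 and then at 105 and 106 (change −1.80, SE 0.25, adjusted p = 0.00393, highest 0.0555 without day 2 replicate 1). Neither day overlapped the other for any of these spindle genes, as for every called probe set. Mki67, the proliferation antigen Ki-67, had signals of 1269 and 1031 on day 2 and 432 and 648 on day 3 and did not pass the test (change −1.07, SE 0.40, adjusted p = 0.138). The number of mitosis genes called fell to 2 without day 2 replicate 1, 13 without day 2 replicate 2, 8 without day 3 replicate 1 and 4 without day 3 replicate 2, and was 9 with the beta-actin covariate. The median of the list stayed between −0.96 and −0.81 over the settings.

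Many promoters of such genes carry CCAAT boxes, bound by NF-Y, and a cell cycle genes homology region (CHR), a short element through which a repressor complex silences them outside division. The letters CCAAT and TTTGAA were searched on both strands in the 150 bases before each RefSeq start. CCAAT was found in 15 of 21 promoters (71.4%) of the mitosis genes that fell, against 24.5% of all 32851 promoters, and TTTGAA in 10 of 21 (47.6%) against 9.07%. Of the 22 genes, 19 had a promoter in the table. The last 100 bases before the start are shown for 4 of the mitosis genes that fell and hold both motifs there. They are examples, and other such genes may have fallen as far. The sequences are read in the direction of the gene from RefSeq on GRCm38.p6. The motifs, or their complements ATTGG and TTCAAA, are in capitals. The 4 genes lie outside the rule for named genes and were chosen after their values were seen. No motif shares a base with another.
Cdc20, chr4:118437344-118437443, minus strand: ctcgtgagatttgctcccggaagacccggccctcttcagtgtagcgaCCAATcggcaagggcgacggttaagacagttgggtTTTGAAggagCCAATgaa
Cdk1, chr10:69352913-69353012, minus strand: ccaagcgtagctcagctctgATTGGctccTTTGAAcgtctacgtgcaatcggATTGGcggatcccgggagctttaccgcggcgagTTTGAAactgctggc
Hmgb2, chr8:57511743-57511842, plus strand: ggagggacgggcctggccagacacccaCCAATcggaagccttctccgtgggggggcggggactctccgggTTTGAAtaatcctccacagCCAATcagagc
Kif22, chr7:127042421-127042520, minus strand: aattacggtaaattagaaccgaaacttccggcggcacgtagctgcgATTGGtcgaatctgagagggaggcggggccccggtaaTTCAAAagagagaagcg

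Cdc20, the activator of the anaphase-promoting complex, had signals of 5102 and 5103 on day 2 and 1700 and 1854 on day 3 (change −1.51, SE 0.17, adjusted p = 0.00217, highest 0.0358). Cdk1, the kinase that starts mitosis, had 3366 and 2758 against 1075 and 1278 (change −1.36, SE 0.23, adjusted p = 0.00746, highest 0.0926 without day 2 replicate 1). Both stayed low on day 4, with Cdc20 at 2156 and 2249 and Cdk1 at 1127 and 1154. The single day 5 array was higher again, at 3379 for Cdc20 and 2696 for Cdk1. Hmgb2, a chromatin protein of dividing cells, went from 1244 and 939 to 569 and 289 (change −1.34, SE 0.35, adjusted p = 0.0423, highest 0.28 without day 3 replicate 2). Kif22, a chromosome-arm kinesin, went from 3964 and 2901 to 1827 and 1589 (change −0.98, SE 0.22, adjusted p = 0.0235, highest 0.194 without day 2 replicate 1). A motif match is a description of letters, and binding was not measured.

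DNA replication and nucleotide synthesis genes showed the same direction. Of 40 represented, 19 were called lower and 0 higher, 39 had a negative change, and the median was −0.79. Uhrf1, which copies DNA methylation to the new strand, had signals of 2534 and 2647 on day 2 and 666 and 890 on day 3 (change −1.71, SE 0.32, adjusted p = 0.0116, highest 0.0933). Cdc6, which loads the replicative helicase, had 1365 and 1316 against 490 and 443 (change −1.46, SE 0.26, adjusted p = 0.00997, highest 0.0935). Mcm3, a subunit of that helicase, had 5157 and 4132 against 1894 and 1808 (change −1.30, SE 0.21, adjusted p = 0.00599, highest 0.0791), and a second probe set changed by −1.25. The day groups of these genes did not overlap, and Lig1, the DNA ligase that joins lagging-strand fragments, moved likewise, from 1336 and 1344 to 553 and 479 (change −1.33, SE 0.22, adjusted p = 0.00685, highest 0.0754). These 4 highest values all arose without day 2 replicate 1. Without the day 2 arrays in turn 1 and 7 genes of the list were called, without the day 3 arrays 6 and 1, and with the beta-actin covariate 14. In the promoters of the replication genes that fell, CCAAT was found in 12 of 22 (54.5%) and TTTGAA in 3 of 22 (13.6%).

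Genes that drive or brake entry into the cycle did not move as a block. Of the 19 represented genes of the G1 list, 1 was called higher and 3 lower, and those lower were the Id genes described above. Ccnd1, cyclin D1, had signals of 2384 and 2842 on day 2 and 2766 and 2781 on day 3 (change 0.09, SE 0.18, adjusted p = 0.836). Myc, the growth-promoting transcription factor, was at 313 and 45.2 and then at 19.0 and 22.8, and did not pass the test (change −1.63, SE 0.53, adjusted p = 0.0888), and its day 2 arrays lay far apart. Of 25 cyclin kinase inhibitors and growth arrest genes, 3 were called higher and 1 lower, with a median of 0.48. Gas6, a secreted ligand of TAM receptors first found in growth-arrested cells, rose from 132 and 155 to 604 and 615 (change 1.87, SE 0.29, adjusted p = 0.00554, highest 0.07 without day 2 replicate 1). Gadd45g fell from 262 and 277 to 58.6 and 79.1 (change −1.59, SE 0.27, adjusted p = 0.00743, highest 0.0738 without day 2 replicate 1), whereas its relative Gadd45a gave 130 and 146 against 685 and 833 and did not pass (change 2.22, SE 0.67, adjusted p = 0.0695). Both belong to a family of stress-induced growth arrest proteins.

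Growth-linked groups gave fewer calls, most of them lower. Of 35 ribosome biogenesis and Myc-linked genes, 6 were called lower and 0 higher (median −0.42), of 32 proteasome genes 7 and 0 (median −0.39), and of 25 heat shock genes and cytosolic chaperones 4 and 0 (median −0.36). Nme1, a nucleoside diphosphate kinase, had signals of 697 and 673 on day 2 and 261 and 264 on day 3 (change −1.28, SE 0.20, adjusted p = 0.0059, highest 0.07). Hsph1, the co-chaperone Hsp110, had 4230 and 3482 against 1731 and 1478 (change −1.25, SE 0.17, adjusted p = 0.00367, highest 0.0577). Psma7, a subunit of the proteasome core, had 5502 and 4211 against 2321 and 2021 (change −1.14, SE 0.24, adjusted p = 0.017, highest 0.155). These highest values arose without day 2 replicate 1. Without that array none of the genes in these 3 lists was called, and without day 3 replicate 2 only 1, a chaperone. With the beta-actin covariate 2, 0 and 1 of their genes were called. Ribosomal proteins had 1 of 31 called higher and 1 lower (median 0.02), and translation factors had 1 of 28 higher and 2 lower (median −0.09, and 0.21 with the covariate). Of 51 oxidative phosphorylation genes 44 had a negative change (median −0.33), and 1 was called lower.

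Sterol synthesis genes, which cells raise when cholesterol is scarce, had negative changes in 16 of 18 (median −0.67), with 3 called lower and 0 higher. Lss, lanosterol synthase, went from 1271 and 1619 to 553 and 297 (change −1.74, SE 0.30, adjusted p = 0.00783, highest 0.0762 without day 3 replicate 2). Fdps, farnesyl diphosphate synthase, had 10572 and 11416 against 4943 and 4717 (change −1.18, SE 0.25, adjusted p = 0.0187, highest 0.121 without day 3 replicate 2), and its 3 other probe sets changed by −0.82 to −1.43. Ebp, a sterol isomerase, had 748 and 835 against 408 and 298 (change −1.11, SE 0.22, adjusted p = 0.0153, highest 0.13 without day 3 replicate 2). For all of them both day 3 arrays lay below both day 2 arrays, as for every probe set called lower. No sterol gene was called without day 2 replicate 1, day 2 replicate 2 or day 3 replicate 2, or with the beta-actin covariate. Of 15 genes of fatty acid synthesis and desaturation, 2 were called lower, among them Me1, the malic enzyme that supplies NADPH (591 and 670 against 267 and 168, change −1.44, SE 0.28, adjusted p = 0.0137, highest 0.117 without day 3 replicate 2).

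Other falls of the largest size had diverse functions. Gclm, the modifier subunit of the enzyme that starts glutathione synthesis, fell from 1133 and 1024 to 247 and 304 (change −1.86, SE 0.19, adjusted p = 0.00114) and was the only 1 of 28 oxidative stress genes called lower. Dmpk, a muscle-associated kinase, fell from 962 and 1891 to 291 and 196 (change −2.35, SE 0.34, adjusted p = 0.0043, highest 0.0555). Dmwd, which lies beside Dmpk on the chromosome, fell from 255 and 257 to 28.4 and 82.0 (change −1.79, SE 0.40, adjusted p = 0.0244, highest 0.143). Cyb5b, a cytochrome b5 of the outer mitochondrial membrane, went from 2895 and 2018 to 603 and 438 (change −2.17, SE 0.31, adjusted p = 0.00393, highest 0.058), while its other probe set changed by 0.15. Fbxo15, an F-box gene used as a marker of embryonic stem cells, went from 420 and 279 to 54.6 and 60.0 (change −2.07, SE 0.28, adjusted p = 0.00357, highest 0.0555). The highest values arose without day 2 replicate 1, and for Dmpk without day 3 replicate 2. Cdkn3, a phosphatase of cyclin-dependent kinases that is itself high in dividing cells, went from 776 and 619 to 192 and 137 (change −1.90, SE 0.31, adjusted p = 0.00678, highest 0.0863 without day 2 replicate 1).

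One probe set of Actb, beta-actin, fell from 5949 and 3457 to 750 and 650 (change −2.65, SE 0.37, adjusted p = 0.00393, highest 0.058 without day 2 replicate 1), but the gene's other probes did not follow. A second probe set changed by 0.87, and the 3 control probe sets of beta-actin ran from 16366 to 24144 on day 2 and from 15961 to 22911 on day 3. The fall therefore belongs to 1 probe set and is not given as a change of the gene.

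Interferon-induced genes, which mark autocrine or induced interferon signalling in macrophages, were lower in 30 of 36 by sign (median −0.35). Of the 36, 5 were called lower and 0 higher, and 0 were called with the beta-actin covariate. Cxcl10, a T cell chemoattractant, went from 120 and 167 to 31.1 and 9.38 (change −1.77, SE 0.31, adjusted p = 0.00895, highest 0.086). Ifit1, an inhibitor of viral RNA translation, went from 190 and 160 to 43.4 and 18.3 (change −1.74, SE 0.34, adjusted p = 0.0137, highest 0.117). Isg20, an interferon-induced exonuclease, had 227 and 252 against 109 and 4.51 (change −1.92, SE 0.51, adjusted p = 0.0458, highest 0.27), and lost its call in 9 of 13 settings. The day 3 signals of all 3 were at or below 109, and their highest values arose without day 3 replicate 2. None of the list was called without any 1 of day 2 replicate 1, day 2 replicate 2 and day 3 replicate 2. Ifit3, from the same family as Ifit1, fell from 82.6 and 96.1 to 11.7 and 11.1 (change −1.48, SE 0.29, adjusted p = 0.0137, highest 0.0941 with the beta-actin covariate) and stood at 36.3 and 41.8 on day 4.

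Among the rises, receptors and signalling proteins of the macrophage surface were prominent. Of 22 genes of Fc receptors and ITAM signalling, the pathway by which macrophages sense antibody-coated particles, 9 were called higher and 0 lower, with a median of 0.75. Fcgr2b, the inhibitory Fc receptor, rose from 280 and 261 to 1026 and 1364 (change 2.01, SE 0.25, adjusted p = 0.00259). Pirb, a paired immunoglobulin-like inhibitory receptor, rose from 200 and 186 to 681 and 590 (change 1.57, SE 0.21, adjusted p = 0.00357). The day groups of both inhibitory receptors did not overlap, as for every called probe set. Fyn, a Src-family kinase, had 176 and 173 against 614 and 669 (change 1.70, SE 0.33, adjusted p = 0.0134, highest 0.0984), and Vav1, a signalling protein of blood cells, had 878 and 931 against 2262 and 2676 (change 1.41, SE 0.27, adjusted p = 0.0131, highest 0.104). Both highest values arose without day 2 replicate 1, and another probe set of Vav1 had the opposite sign (−0.35). Without the day 2 arrays in turn 2 and 3 genes of the list were called, without the day 3 arrays 6 and 2, and with the beta-actin covariate 3, while its median stayed between 0.59 and 0.94.

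Adhesion genes were mixed. Of 32 integrin and adhesion genes 6 were called higher and 1 lower, and with the beta-actin covariate 3 higher and 0 lower. Itgam, the alpha chain of the complement receptor CD11b/CD18, rose from 205 and 297 to 1827 and 2278 (change 2.89, SE 0.32, adjusted p = 0.00175). Itgb7, an integrin beta chain of leukocyte homing, rose from 693 and 943 to 3592 and 4303 (change 2.24, SE 0.21, adjusted p = 0.000707), and Cd47, the signal that restrains phagocytosis, from 609 and 627 to 1599 and 1738 (change 1.39, SE 0.17, adjusted p = 0.00259). These 3 were among the genes called in every setting. In the other direction, Itgav, the vitronectin receptor chain used by osteoclasts to attach to bone, fell from 3980 and 3738 to 1416 and 1423 (change −1.42, SE 0.23, adjusted p = 0.0065, highest 0.0791 without day 2 replicate 1), while its 2 other probe sets changed by 0.13 and −0.47. Without the day 2 or the day 3 arrays in turn, 3 adhesion genes were called higher each time.

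Macrophage markers rose in part. Of 33 represented, 7 were called higher and 0 lower (median 0.40), and with the beta-actin covariate 2 were called higher. Adgre1, the F4/80 antigen of mature mouse macrophages, rose from 493 and 523 to 1243 and 1386 (change 1.32, SE 0.18, adjusted p = 0.00367, highest 0.0537 without day 2 replicate 1), while its second probe set changed by −0.09. Aif1, the cytoskeletal protein Iba1, had 30.9 and 21.2 against 118 and 204 (change 1.70, SE 0.34, adjusted p = 0.0144, highest 0.115 without day 3 replicate 2). Cd74, the invariant chain that escorts MHC class II molecules, rose from 2456 and 3089 to 11452 and 13779 (change 2.18, SE 0.34, adjusted p = 0.00584, highest 0.0776 without day 2 replicate 1). It was the only 1 of 22 antigen presentation genes called, and the class II chain H2-Eb1 gave 37.6 and 52.0 against 139 and 196 without passing (change 1.37, SE 0.64, adjusted p = 0.236). Without the day 2 arrays in turn 1 and 2 macrophage markers were called, and without the day 3 arrays 4 and 2. Some other markers of the line did not pass the test. Csf1r, the receptor of the macrophage growth factor M-CSF, had 8730 and 10691 against 10960 and 14299 (change 0.37, SE 0.20, adjusted p = 0.318), and Lyz2, lysozyme, had 14712 and 11188 against 12306 and 9651 (change −0.23, SE 0.30, adjusted p = 0.72).

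**Figure D2:**
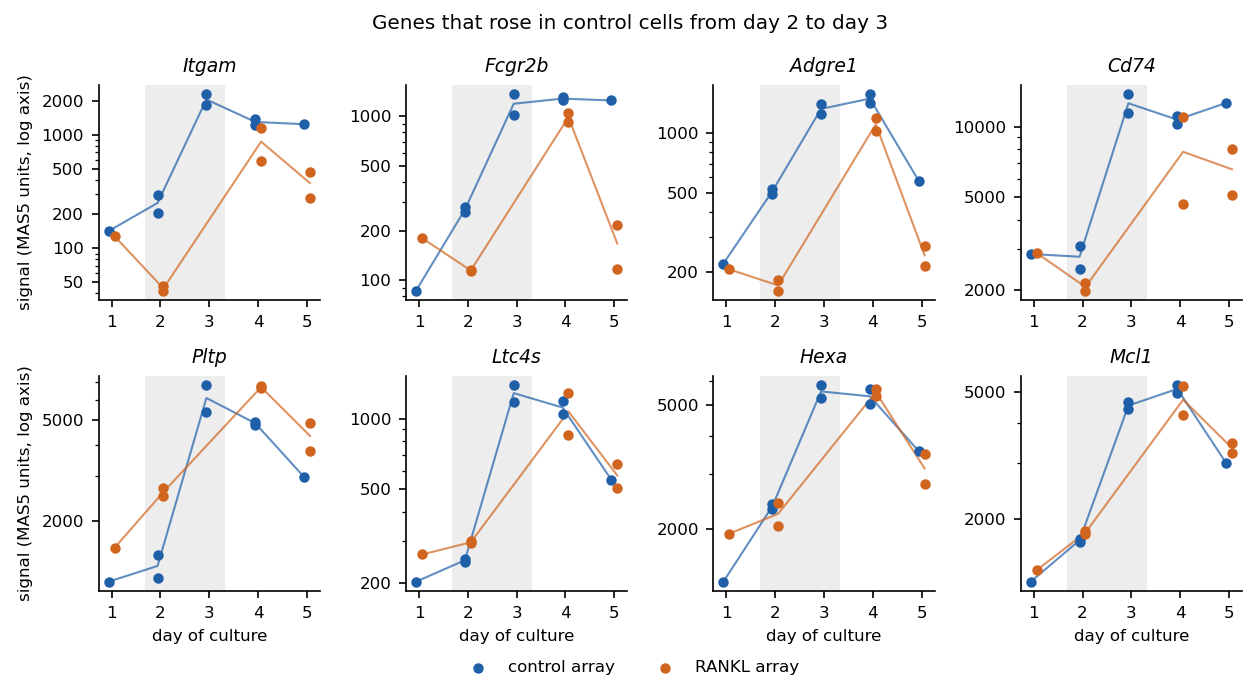
Signals (log axis, MAS5 intensity units) of 8 genes that rose in control cells, by day of culture; points are arrays, lines join group means, the shaded span is day 2 to day 3, and no RANKL array of day 3 is shown. In all 8 panels both day 3 control arrays lie above both day 2 control arrays, and Itgam reaches 1827 and 2278 from 205 and 297.

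Lysosomal genes, which encode the degradative enzymes and membrane proteins of that organelle, were higher in 33 of 38 by sign (median 0.61), with 8 called higher and 0 lower. Hexa, a beta-hexosaminidase subunit, rose from 2412 and 2320 to 5803 and 5293 (change 1.22, SE 0.17, adjusted p = 0.00377). Lamp2, a lysosomal membrane protein, rose from 1059 and 1086 to 3267 and 3354 (change 1.60, SE 0.25, adjusted p = 0.00599, highest 0.0702), and Tpp1, a lysosomal peptidase, from 1948 and 2733 to 5901 and 5447 (change 1.28, SE 0.18, adjusted p = 0.00393, highest 0.0577). The latter values arose without day 2 replicate 1. The called number was 1 and 5 without the day 2 arrays in turn, 3 and 2 without the day 3 arrays, and 4 with the beta-actin covariate, and the median stayed between 0.55 and 0.63. The proton pump that acidifies the lysosome had 0 of 15 genes called (median 0.33).

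Lipid and iron handling added single strong rises. Pltp, which transfers phospholipids between lipoproteins, had signals of 1205 and 1475 on day 2 and 5349 and 6817 on day 3 (change 2.15, SE 0.18, adjusted p = 0.000346). It was 1 of 5 genes called higher, against 1 lower, among 23 of lipid storage, efflux and fatty acid oxidation (median 0.16). Plin2, the coat protein of lipid droplets, had 2859 and 2801 against 7806 and 6524 (change 1.32, SE 0.34, adjusted p = 0.0414, highest 0.189 without day 2 replicate 1). Slc11a2, an importer of ferrous iron, rose from 777 and 699 to 1728 and 1579 (change 1.13, SE 0.16, adjusted p = 0.00428), and Cp, the ferroxidase ceruloplasmin, from 13.7 and 9.50 to 170 and 257 (change 2.47, SE 0.48, adjusted p = 0.0137, highest 0.106 without day 3 replicate 2). These were the 2 of 17 iron and haem genes called.

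The highest rise of the 12 largest was that of Cox6a2, the muscle form of a cytochrome c oxidase subunit, from 45.2 and 43.7 to 1494 and 1173 (change 4.15, SE 0.84, adjusted p = 0.0158). The change was as large on day 4 (1100 and 1261), but the call was lost without each of the 4 arrays (highest adjusted p = 0.11 without day 2 replicate 1). Hebp1, a haem-binding protein, rose from 82.8 and 32.3 to 496 and 770 (change 2.92, SE 0.36, adjusted p = 0.00266). Tcn2, the vitamin B12 carrier, went from 155 and 127 to 1056 and 1144 (change 2.71, SE 0.45, adjusted p = 0.00725, highest 0.07). Further rises were those of St6gal1, a sialyltransferase (35.7 and 120 against 563 and 564, change 2.55, SE 0.41, adjusted p = 0.00626, highest 0.0773), and Mcoln2, an endolysosomal cation channel (70.9 and 125 against 628 and 757, change 2.51, SE 0.38, adjusted p = 0.00549, highest 0.0738). Vamp5, a vesicle fusion protein, went from 22.7 and 35.2 to 251 and 349 (change 2.44, SE 0.38, adjusted p = 0.00584, highest 0.0738). For these 4 genes every day 2 signal was at or below 155 and every day 3 signal at or above 251, and the highest values arose without day 2 replicate 1.

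Inflammatory effectors had 6 of 40 genes called higher and 0 lower (median 0.23), and with the beta-actin covariate 2 were called higher. Mmp9, a secreted gelatinase, had signals of 155 and 12.8 on day 2 and 745 and 896 on day 3 (change 3.21, SE 0.51, adjusted p = 0.00625, highest 0.0599 without day 3 replicate 2). Acod1, which makes itaconate, had 188 and 192 against 2173 and 1739 (change 3.15, SE 0.55, adjusted p = 0.00876, highest 0.0863 without day 2 replicate 1). Saa3, an acute-phase serum amyloid protein, had 59.2 and 80.6 against 690 and 995 (change 3.09, SE 0.58, adjusted p = 0.0116, highest 0.103 without day 2 replicate 1). Ltc4s, leukotriene C4 synthase, rose from 253 and 246 to 1183 and 1387 (change 2.22, SE 0.22, adjusted p = 0.000707), although another probe set changed by 0.04. Classical cytokines were less even. Tnf had 909 and 1036 against 2131 and 4082 (change 1.57, SE 0.56, adjusted p = 0.119). Cxcl2, a neutrophil attractant, had 158 and 181 against 3467 and 2501 (change 3.89, SE 1.15, adjusted p = 0.0648). Neither passed the test. Their day groups did not overlap, which held in that direction for 27.2% of all probe sets. Without each of the 4 arrays in turn, 1 to 4 inflammatory genes were called, fewest without day 3 replicate 2.

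Of 34 chemokine and cytokine receptors 8 were called higher and 0 lower (median 0.49). Tnfrsf1b, a TNF receptor, rose from 234 and 449 to 1239 and 1979 (change 2.16, SE 0.41, adjusted p = 0.0129, highest 0.131 without day 2 replicate 1). Csf2rb, the shared beta chain of the GM-CSF and IL-3 receptors, went from 26.2 and 35.7 to 246 and 454 (change 2.55, SE 0.63, adjusted p = 0.0351, highest 0.203 without day 3 replicate 2), and Il10ra, a chain of the IL-10 receptor, from 32.2 and 25.0 to 200.0 and 263 (change 2.11, SE 0.36, adjusted p = 0.00746, highest 0.0705 without day 2 replicate 1). No receptor was called without day 2 replicate 1 or without day 3 replicate 2, or with the beta-actin covariate.

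Survival and stress genes gave few calls. Mcl1, an inhibitor of apoptosis with a short half-life, rose from 1692 and 1729 to 4411 and 4656 (change 1.39, SE 0.15, adjusted p = 0.00175), and Bcl2l11, the death promoter Bim, from 284 and 414 to 696 and 915 (change 1.14, SE 0.21, adjusted p = 0.0117, highest 0.12 without day 2 replicate 1). In all, 3 of 25 apoptosis genes were called higher and 0 lower. Of 28 immediate-early and growth factor response genes, 5 were called higher and 0 lower (median 0.20), among them Ier3 (1500 and 1361 against 5839 and 6893, change 2.13, SE 0.50, adjusted p = 0.0291, highest 0.165 without day 3 replicate 2) and Dusp6, a phosphatase of ERK (417 and 518 against 1797 and 1908, change 1.92, SE 0.45, adjusted p = 0.0295, highest 0.185 without day 2 replicate 1). None of the 5 was called without any 1 of the 4 arrays. With the beta-actin covariate 0 of the 28 genes were called. Egr1 gave 441 and 516 against 793 and 1027 (change 0.88, SE 0.27, adjusted p = 0.0765) and Fos 4328 and 3270 against 2599 and 2497 (change −0.56, SE 0.24, adjusted p = 0.201), so these textbook serum-response genes did not pass and had opposite signs.

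Genes of the integrated stress and amino acid response had a median of 0.47, with 26 of 32 positive, and 2 were called higher and 0 lower. That count depended on the arrays fitted: it was 12 with the 8 control arrays, 9 with the 4 compared arrays, 9 without RANKL day 5 replicate 2, and 0 without any 1 of the 4 compared arrays, without the intensity trend or with the beta-actin covariate. Trib3, a pseudokinase target of this pathway, had 167 and 172 against 1299 and 1021 and did not pass (change 2.56, SE 0.73, adjusted p = 0.0578), and Ddit3, the transcription factor CHOP, had 230 and 273 against 848 and 578 (change 1.37, SE 0.74, adjusted p = 0.315). Ndrg1, a stress gene of the hypoxia list, was 1 of 2 of 18 called there (787 and 1003 against 3756 and 4034, change 2.09, SE 0.48, adjusted p = 0.026, highest 0.175 without day 2 replicate 1).

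Osteoclast genes, measured here in cells without the cytokine that induces them, were mixed: 5 of 23 were called lower and 2 higher (median −0.12). With the beta-actin covariate 1 was called lower and 1 higher (median 0.03), and without day 2 replicate 1 none was lower and 1 higher. Nfatc1, the master transcription factor of osteoclasts, had signals of 2134 and 861 on day 2 and 441 and 539 on day 3 (change −1.42, SE 0.37, adjusted p = 0.0415), and lost its call in 9 of 14 settings (highest adjusted p = 0.287 without day 2 replicate 1). Ank, a transmembrane transporter that exports pyrophosphate and ATP, fell from 5740 and 4823 to 1802 and 2112 (change −1.42, SE 0.19, adjusted p = 0.00357, highest 0.0537 without day 2 replicate 1). Acp5, the osteoclast acid phosphatase, was at 257 and 90.6 and then at 109 and 62.8 (change −0.70, SE 0.36, adjusted p = 0.289), and Ctsk, the bone-degrading cathepsin K, at 285 and 204 and then at 282 and 169 (change −0.12, SE 0.26, adjusted p = 0.837). The groups of these last genes overlapped. Without the day 2 arrays in turn 0 and 3 osteoclast genes were called lower, and without the day 3 arrays 2 and 1. The 2 genes called higher were Mmp9 and Itgb3.

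Most markers of cells that the culture should not hold were dim. Of 49 represented markers of T, B, neutrophil, erythroid and stromal or osteoblast cells, 1 was called higher and 0 lower. A signal of 100 was not reached on any of the 15 arrays by 30 of them. The called one was Ighm, the immunoglobulin mu chain, from 168 and 227 to 680 and 775 (change 1.73, SE 0.29, adjusted p = 0.00735, highest 0.0917 without day 2 replicate 1). Its 15 other probe sets changed by −0.58 to 2.00, so no level of the gene is drawn from it. The summed signal of the B cell list was 741 to 856 on day 2 and 1319 to 1669 on day 3. That of the stromal and osteoblast list was 1922 to 2456 on day 2 and 1737 to 2098 on day 3.

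**Figure D3:**
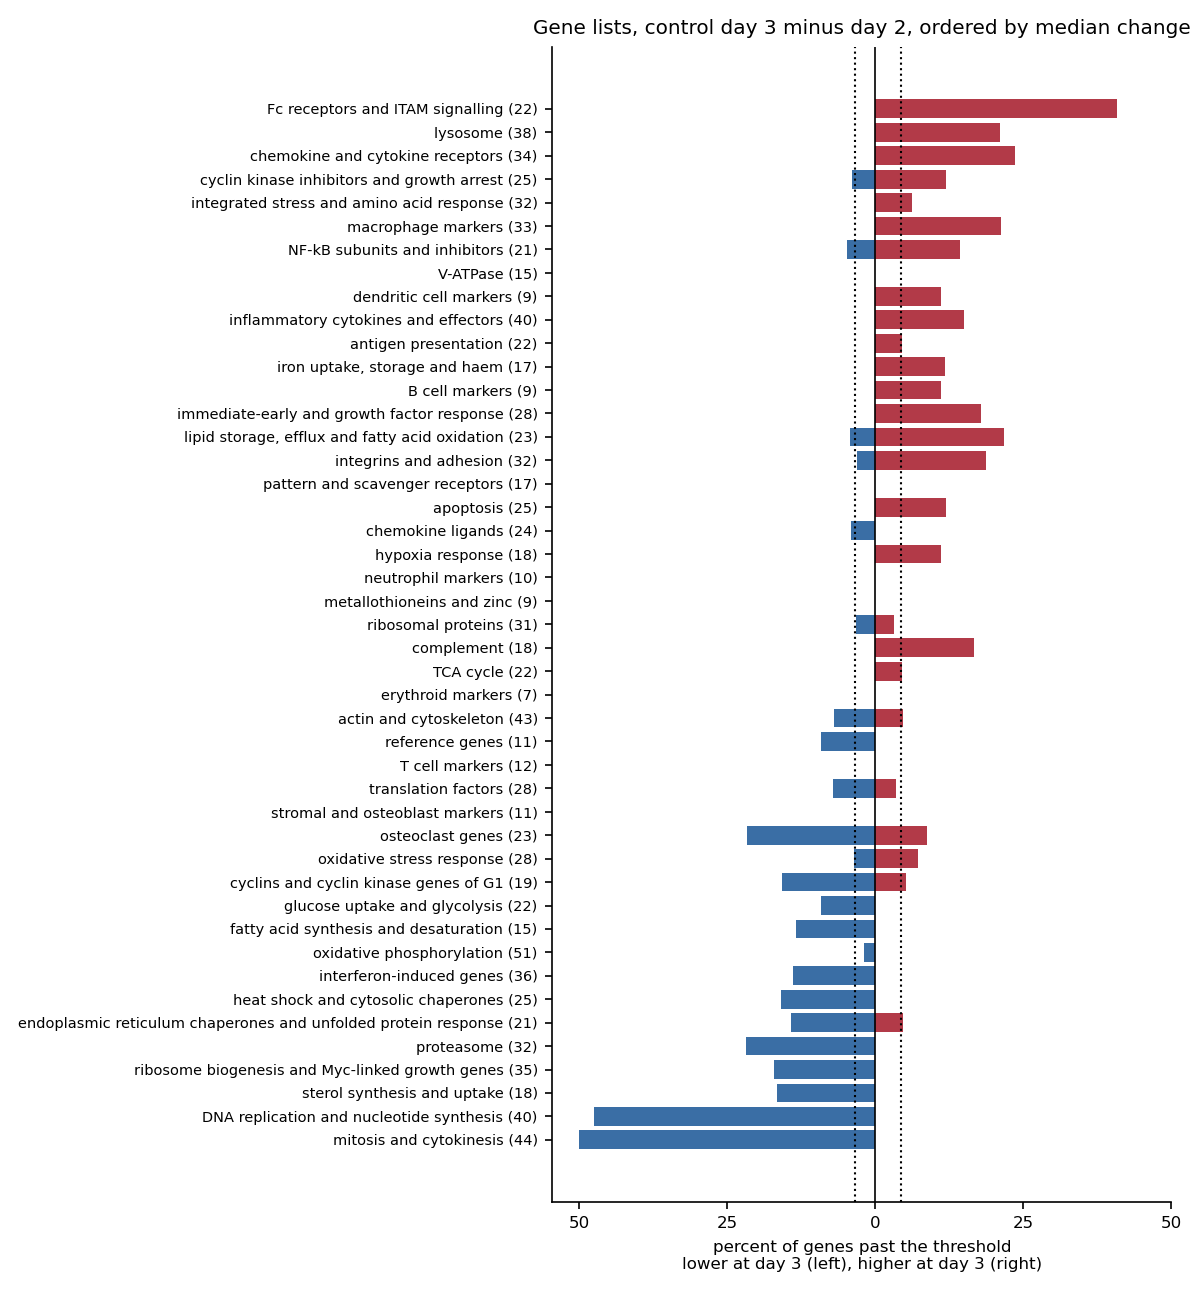
Percent of the represented genes of 45 lists called lower (left) or higher (right) on day 3 against day 2 in control cells, ordered by median change, with the number of genes in parentheses; dotted lines mark the percent over all genes (3.45 lower, 4.29 higher). The longest bars are mitosis (22 of 44 lower) and DNA replication (19 of 40 lower), and Fc receptors (9 of 22) lead on the higher side.

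The new levels largely held on day 4. Both comparisons use the same day 2 arrays, so the values are given as a description. Of the 880 probe sets, 851 (96.7%) had both day 4 arrays beyond both day 2 arrays in the called direction, 486 of 508 higher and 365 of 372 lower. Over all probe sets 23.7% had both day 4 arrays above and 24.7% below. The change from day 2 to day 4 was a median of 88.2% of the change from day 2 to day 3 for the higher probe sets and 85.6% for the lower ones. In its own test day 4 minus day 2 gave 555 calls (4.47%; 2.58% higher and 1.88% lower), which include 282 of the 508 and 200 of the 372. Day 4 minus day 3 gave 0 calls in limma after adjustment (smallest adjusted p = 0.117), with 574 at an unadjusted p below 0.05. The single day 5 array lay beyond both day 2 arrays for 464 of the higher and 345 of the lower probe sets, and over all probe sets it lay above both for 31.0% and below both for 46.1%. On the single day 1 array the medians were −0.07 and 0.06 from the day 2 mean, against 1.13 and 1.25 for the higher and −0.98 and −1.07 for the lower probe sets on the day 3 arrays.

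**Figure D4:**
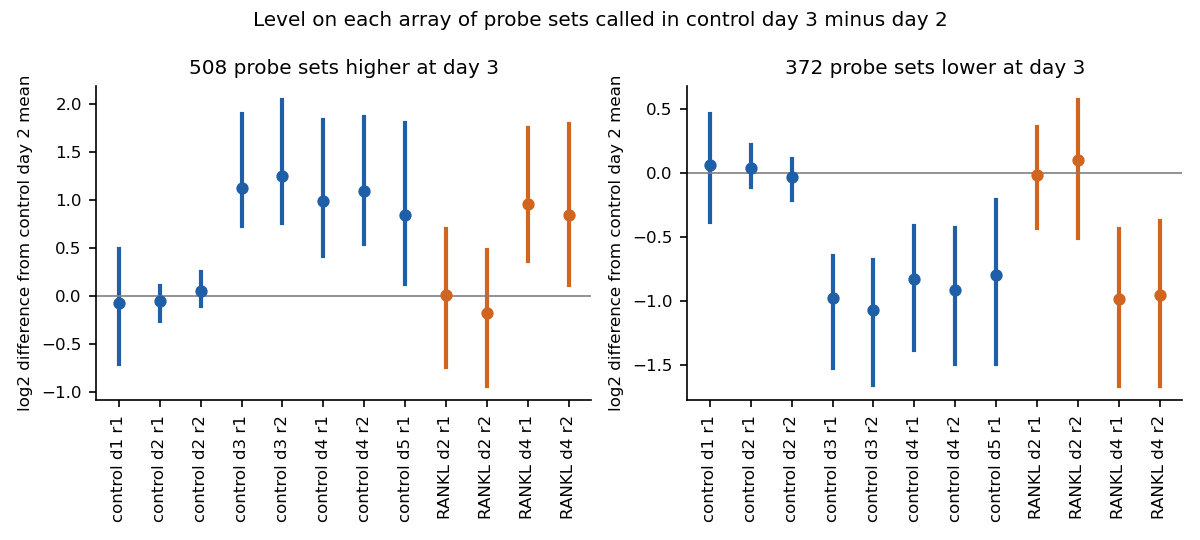
Log2 difference from the control day 2 mean on each array (d, day; r, replicate) for the 508 probe sets called higher and the 372 called lower on day 3; points are medians over probe sets and bars run from the 10th to the 90th percentile. Days 1 and 2 lie near 0 and control days 3 to 5 at the new level, with medians of 0.99 and 1.09 (higher) and −0.83 and −0.91 (lower) on day 4.

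All 12 of the largest rises and all 12 of the largest falls had both day 4 arrays beyond both day 2 arrays, and 11 and 10 of them were called in day 4 minus day 2. Csf2rb (change 2.06, SE 0.63, adjusted p = 0.0908), Isg20 (−0.99, SE 0.51, adjusted p = 0.355) and Dmwd (−1.57, SE 0.40, adjusted p = 0.052) were not. The share of the day 3 change kept on day 4 ran from 76.6% for Vamp5 to 125% for Saa3 among the rises, and from 51.8% for Isg20 to 113% for Id1 among the falls. Replication genes had a median of −0.85 against day 2 with 19 of 40 called lower, and mitosis genes −0.69 with 12 of 44. From day 3 to day 4 the mitosis median was 0.18, with 36 of 44 positive and 0 called. Interferon-induced genes had −0.52 against day 2 with 1 of 36 called lower. Over all probe sets 1.88% were called lower and 2.58% higher against day 2, and the interferon count lay near that share. Lysosomal genes kept 0.47 with 7 of 38 called higher, and Fc receptor and ITAM genes 0.57 with 6 of 22. The difference between these groups was not tested.

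Of the 29 probe sets that did not hold, 21 had no signal of 100 or more on the control arrays of days 2 to 4, against 66 of all 880. Among them, picked after their values were seen, Itgb3, the integrin beta chain of the osteoclast vitronectin receptor, had signals of 11.6 and 10.8 on day 2, 40.9 and 78.2 on day 3, and 14.1 and 11.3 on day 4 (change to day 3 1.05, SE 0.29, adjusted p = 0.0499, and to day 4 0.05, SE 0.29). Chrnd, a subunit of the muscle acetylcholine receptor, had 15.8 and 21.3, then 84.0 and 98.9, then 5.40 and 14.8 (1.29, SE 0.30, adjusted p = 0.0272, and −0.27, SE 0.30). All of these signals were below 100, so both genes were dim, and their highest adjusted p over the settings was 0.279 and 0.17.

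RANKL cells were compared from day 2 to day 4, a longer span than the control step, on other arrays. The spread of each probe set came from the same fit to all arrays, so the lists of calls are not independent. RANKL day 4 minus RANKL day 2 gave 1556 calls (12.5%), 879 higher (7.08%) and 677 lower (5.45%), and both day 4 arrays lay above both day 2 arrays for 23.7% of all probe sets and below them for 26.8%. Of the 880 probe sets of the control step, 570 were called there in the same direction, which is 64.8% of the control list and 36.6% of the RANKL list, and 1 was called in the opposite direction. By direction they were 310 of 508 higher and 260 of 372 lower. The mitosis list had 24 of 44 and the replication list 26 of 40 genes called lower with RANKL, and the lysosome list had 20 of 38 called higher. Aurka had signals of 2146 and 2479 on the RANKL day 2 arrays and 413 and 575 on the RANKL day 4 arrays (change −2.17, SE 0.21, adjusted p = 0.000444), and Mcl1 had 1829 and 1787 against 4240 and 5219 (change 1.36, SE 0.15, adjusted p = 0.000632). For both genes the RANKL groups of day 2 and day 4 did not overlap.

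**Figure D5:**
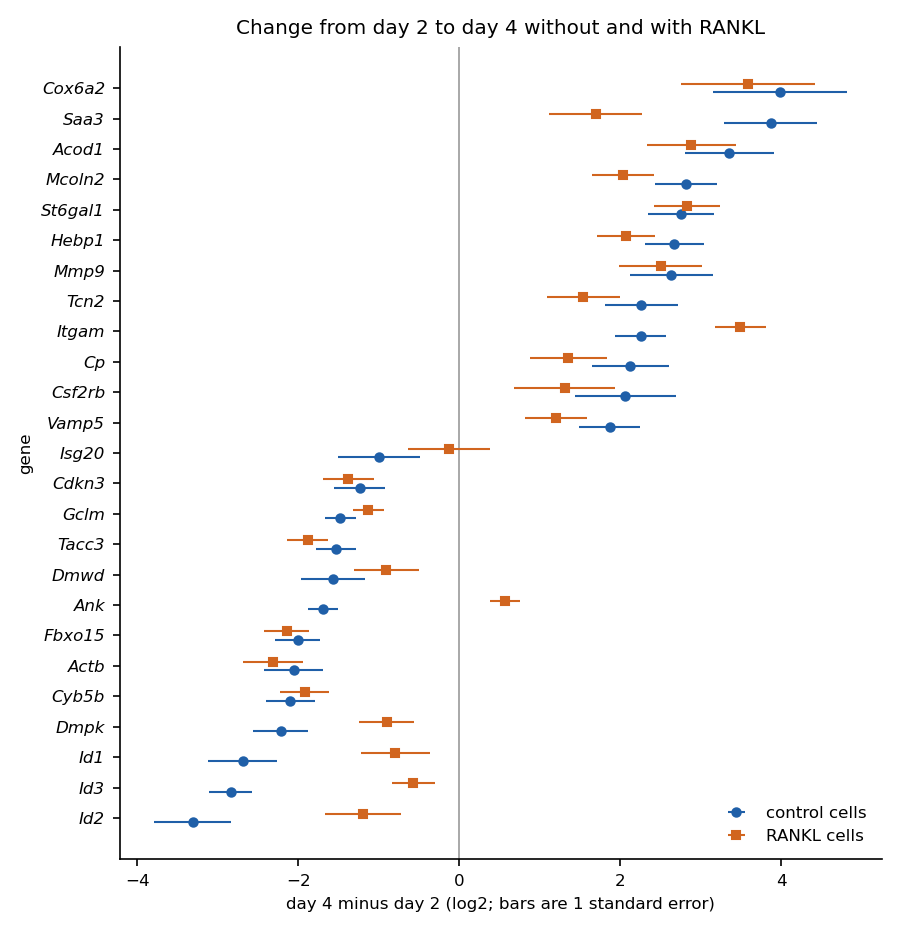
Log2 change from day 2 to day 4 in control cells (circles) and RANKL cells (squares) for the 12 largest rises, the 12 largest falls and Ank, with bars of 1 standard error from limma. Most pairs lie on the same side of 0; Ank is at −1.69 without and 0.57 with RANKL, and Id1, Id2 and Id3 lie farther from 0 without RANKL.

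Of 12422 probe sets, 1 (0.00805%) passed the test of the difference between control and RANKL cells itself. That probe set was Ank, with signals of 1449 and 1783 on the control day 4 arrays, and of 9447 and 7511 on day 2 and 12410 and 12694 on day 4 with RANKL. Its change from day 2 to day 4 was −1.69 without RANKL (SE 0.19) and 0.57 with it (SE 0.19), a difference of −2.26 (SE 0.27, adjusted p = 0.0344). The call held in 4 of 16 alternative settings (adjusted p from 0.00651 to 0.343) and was lost without any 1 of the 8 arrays compared. For the Id genes the control changes were −2.69 (Id1), −3.31 (Id2) and −2.84 (Id3), and the RANKL changes −0.80, −1.20 and −0.57. With RANKL, Id3 had 995 and 1034 on day 2 and 636 and 712 on day 4, and Id2 had 1126 and 1339 against 395 and 675. The differences, −1.89 (SE 0.61, adjusted p = 0.475), −2.11 (SE 0.67, adjusted p = 0.474) and −2.27 (SE 0.38, adjusted p = 0.196), did not pass the test. Itgav, with 4530 and 3910 on RANKL day 2 and 4296 and 6045 on RANKL day 4, changed by 0.27 (SE 0.23, adjusted p = 0.537) with the cytokine and by −1.30 (SE 0.23, adjusted p = 0.0128) without it, and the difference of −1.58 (SE 0.33, adjusted p = 0.336) did not pass the test.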

How the data were processed

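Values were deposited as 1 signal, a linear intensity, per probe set, which the authors made with MAS5, per the submitters' processing notes; its version is not given in the sources used here. The 2% trimmed mean was 500 on each of the 15 arrays, so the deposited values had been scaled, and no normalization was added. The 66 manufacturer control probe sets of 12488 were left out. The annotation gives 1 gene for 10833 of the other 12422, several for 396 and none for 1193, and only the first kind is named. Where several probe sets name 1 of the 8251 genes, the brightest on average (log2) stands for it.

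A linear model of log2(signal + 32) with 1 mean for each of 9 groups was fitted with limma 3.58.1 in R 4.3.3 (eBayes with an intensity trend, 6 residual and 5.39 prior degrees of freedom). Tests were two-sided, with Benjamini-Hochberg adjustment over all 12422 probe sets within a comparison. Control day 3 minus day 2, day 4 minus day 2 and day 4 minus day 3 share arrays. The procedure was tested on simulated data with independent noise, which cannot show the effect of technical replicates or of RNA integrity. The only measure of depth for an array is its signal, and the number of arrays limits the precision.

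Named genes were, among changes past the threshold, the 12 largest in each direction whose day groups did not overlap and whose higher mean was at least 100, 5 each for the other comparisons, up to 4 members of each list by size of change, and a panel of 14. The 45 lists hold 1270 genes, of which 1019 are represented. The members and lists were chosen with earlier results of these data known.

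Tried as alternatives were quantile normalization, pseudocounts of 1 and 100, a test of only the brighter 50% of probe sets, eBayes without a trend, a block for replicate number, the beta-actin ratio as a covariate, the 8 control arrays, the 4 compared arrays, and leaving out single arrays. Replicate numbers did not pair the arrays: over 15 pairs of groups the correlation of replicate differences ran from −0.17 to 0.12, and it was 0.01 between day 2 and day 3.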

Additional observations from a re-analysis of the deposited data

Results flagged for a closer look

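Ank was the one gene whose change from day 2 to day 4 differed between cells without and with RANKL by the test of the difference itself, at −2.26 (SE 0.27, adjusted p = 0.0344 in limma). Both control arrays of day 4 lay below both control arrays of day 2, and both RANKL arrays of day 4 lay above both RANKL arrays of day 2. Over 16 alternative settings the difference stayed between −2.43 and −2.10, and it was past the threshold in 4 of them (adjusted p from 0.00651 to 0.343).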

How the results depend on the processing

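The number of probe sets called in control day 3 minus day 2 was 880, and it was 203 with the beta-actin ratio as a covariate and 49 to 980 with 1 array left out (364 at most where that was 1 of the 4 compared). For day 4 minus day 2 it was 555, against 879 with the upper 50% of probe sets, 308 with the beta-actin covariate, 847 with the 8 control arrays only, and 36 to 656 with 1 array left out (189 at most where it was a compared array). Control day 3 minus day 2 gave 1192 calls with the 8 control arrays only, 1136 with the upper 50% of probe sets and 672 without the intensity trend. Day 4 minus day 3 gave 0 calls, and 3 with a pseudocount of 100. RANKL day 4 minus day 2 gave 1556 calls, and 541 to 1607 with 1 array left out. The 1 call for the difference between control and RANKL cells became 5 with the upper 50% of probe sets, 0 with quantile normalization, without the intensity trend, with the replicate block or with the beta-actin covariate, and 0 to 4 with 1 array left out. Leaving out an array lowers the number of samples, and the cause of the other shifts was not tested.

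With the replicate block, control day 3 minus day 2 gave 721 calls, and 6 of 101 named genes past the threshold lost their call, although the numbers do not pair the arrays. Lost calls among the 101 were 84, 51, 33 and 78 without day 2 replicate 1, day 2 replicate 2, day 3 replicate 1 and day 3 replicate 2, and 55 with the beta-actin covariate. Between 85.4% and 98.0% of called probe sets had both day 4 arrays beyond both day 2 arrays over the settings. The median of 14 of the 45 lists changed sign or reached 0 in at least 1 of 14 settings. Among 15 lists with at least 5 calls, these were 2, osteoclast genes (0.03 with the beta-actin covariate) and actin and cytoskeleton. The calls of some lists grew in other settings, to 15 from 8 for the lysosome and to 8 from 3 for sterol synthesis with the upper 50% of probe sets, and from 6 higher and 0 lower to 9 higher and 2 lower for inflammatory effectors with the 8 control arrays. Signals under 100 limit what can be said of dim genes.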
